A study of Mus musculus with 4 samples.

Results

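Cytochrome c oxidase, or complex IV, is the last enzyme of the respiratory chain, which takes electrons from cytochrome c and passes them to oxygen. Several of its nuclear-encoded subunits exist as isoforms from separate genes, and the genes described here are those of subunits 4, 6a, 7a and 8. They were taken by name: the muscle isoforms Cox6a2, Cox7a1 and Cox8b, the ubiquitous isoforms Cox4i1, Cox6a1, Cox7a2 and Cox8a, the lung and hypoxia isoform Cox4i2, and Cox7a2l, a relative of the subunit 7a genes. These are 9 of the 53647 genes in the count tables, and 8 of them passed the filter on low counts, as did 15173 genes in all.

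The study treated primary mouse myotubes with EDA-A2, a ligand of the tumour necrosis factor superfamily that binds the receptor EDA2R, and asked by RNA sequencing which genes respond. Myoblasts from the limb muscles of wild-type (WT) pups aged 2 to 3 days were fused into myotubes, the multinucleated precursors of muscle fibres. The 2 EDA-A2 libraries came from myotubes given 250 ng/ml EDA-A2 for 24 h, and the 2 Control libraries from myotubes labelled Control at the same 24 h, with harvest placed at 72 h after differentiation. The labels give no strain or sex and do not say that the 2 libraries of a group came from separate cultures. The p-values therefore measure only the spread between these libraries, which may be technical.

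The catalytic core of complex IV is made in mitochondria, and the nuclear subunits around it stabilise the enzyme and tune its activity. Adult heart and skeletal muscle contain muscle isoforms of subunits 6a, 7a and 8, and most other tissues contain the ubiquitous ones. Muscle exchanges isoforms as it matures, so the balance within a pair of isoforms is a feature of muscle identity as well as of respiration. Brown fat also uses Cox7a1 and Cox8b.

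The promoters of the muscle isoforms and of 2 of their ubiquitous partners are printed because the pairs of subunits 6a and 8 are those in which only the muscle form passed the test. Each sequence runs 5′ to 3′ from 270 bases before the first transcribed base of the representative transcript to 30 bases into it, as read from GRCm39 with the GENCODE vM39 annotation. Capitals mark the E-box CANNTG, which myogenic factors such as MyoD and myogenin can bind, the MEF2 motif, the ETS motif CCGGAAG, the NRF1 motif and the TATA box TATAAA, searched on both strands.
Cox6a2 promoter, chr7:127805530-127805829, minus strand: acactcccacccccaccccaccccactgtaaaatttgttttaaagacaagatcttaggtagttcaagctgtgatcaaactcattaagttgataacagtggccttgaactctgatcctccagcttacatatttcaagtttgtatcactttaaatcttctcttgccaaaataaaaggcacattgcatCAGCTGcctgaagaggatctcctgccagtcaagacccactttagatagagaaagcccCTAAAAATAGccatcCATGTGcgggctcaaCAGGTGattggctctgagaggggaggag
Cox8b promoter, chr7:140480330-140480629, minus strand: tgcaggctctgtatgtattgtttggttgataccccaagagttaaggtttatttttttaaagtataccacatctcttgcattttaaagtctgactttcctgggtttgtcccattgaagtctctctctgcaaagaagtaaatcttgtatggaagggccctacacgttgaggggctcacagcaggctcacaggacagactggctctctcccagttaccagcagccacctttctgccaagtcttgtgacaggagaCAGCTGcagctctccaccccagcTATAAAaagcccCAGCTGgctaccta
Cox7a1 promoter, chr7:29883299-29883598, plus strand: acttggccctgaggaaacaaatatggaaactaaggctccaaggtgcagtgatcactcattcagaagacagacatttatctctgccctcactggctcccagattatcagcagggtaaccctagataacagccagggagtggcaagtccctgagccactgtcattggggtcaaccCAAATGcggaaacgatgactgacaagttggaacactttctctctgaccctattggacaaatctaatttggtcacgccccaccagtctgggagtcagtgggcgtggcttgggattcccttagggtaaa
Cox6a1 promoter, chr5:115487011-115487310, minus strand: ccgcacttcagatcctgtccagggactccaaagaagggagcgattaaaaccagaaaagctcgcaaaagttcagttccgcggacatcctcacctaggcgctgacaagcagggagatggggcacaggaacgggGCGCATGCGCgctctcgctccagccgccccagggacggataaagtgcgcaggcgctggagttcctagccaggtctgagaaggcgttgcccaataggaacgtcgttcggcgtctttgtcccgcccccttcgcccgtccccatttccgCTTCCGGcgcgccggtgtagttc
Cox8a promoter, chr19:7194935-7195234, minus strand: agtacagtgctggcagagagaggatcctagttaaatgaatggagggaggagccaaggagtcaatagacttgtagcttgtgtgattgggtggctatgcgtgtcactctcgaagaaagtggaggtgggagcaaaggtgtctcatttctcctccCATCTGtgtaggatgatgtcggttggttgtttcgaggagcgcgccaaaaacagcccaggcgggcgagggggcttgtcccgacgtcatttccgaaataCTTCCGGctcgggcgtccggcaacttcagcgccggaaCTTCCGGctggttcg

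The Cox6a2 promoter held 3 E-boxes, CAGCTG starting 85 bases before the first transcribed base, CATGTG starting 13 bases before it and CAGGTG at position 3 within the transcript, and a MEF2 motif starting 28 bases before the transcript. The MEF2 motif occurred in 0.606% of 21613 promoters of the same length, whereas CANNTG occurred in 71.1%. Cox8b held the E-box CAGCTG 2 times, starting 19 bases before the first transcribed base and at position 17 within the transcript. That E-box was held at least 1 time by 14.2% of promoters, among them that of the ubiquitous Cox4i1, which is not printed. Cox8b also held TATAAA, at position 5 within the transcript, which 13.6% of promoters held. One E-box, CAAATG, was found for Cox7a1. The Cox6a1 promoter had no E-box but had the NRF1 motif, present in 1.05% of promoters, and the ETS motif, present in 9.64%. Cox8a had the ETS motif 2 times and the E-box CATCTG. CpG dinucleotides numbered 1 in Cox6a2, 1 in Cox8b and 4 in Cox7a1, against 28 in Cox6a1, 19 in Cox8a and a median of 10 over all promoters. The 3 muscle promoters thus lay below that median and both ubiquitous ones above it. An NF-kB motif, which 4.93% of promoters held, was not found in these letters for any of the 9 genes. These matches describe sequence and are not binding sites.

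The deposited tables held 29444155 to 29746863 counts on genes per library. The quasi-likelihood test of edgeR, adjusted over all genes tested by Benjamini-Hochberg, called 323 genes (2.13%) lower and 371 (2.45%) higher with EDA-A2 at an adjusted p under 0.05. Normalised counts are counts scaled to a common library size by TMM factors, which lay between 0.972 and 1.026. Both EDA-A2 libraries lay below both Control libraries in 22.2% of the genes tested. Standard errors of log2 fold changes had a median of 0.10, and no change smaller than 0.24 (log2) was called.

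Of the 8 isoform genes tested, 2 were lower with EDA-A2 and 0 were higher, against a background of 2.13% lower and 2.45% higher over all genes. All 8 estimates lay below 0, as did 50.5% of all genes tested. The 2 called genes were muscle isoforms, Cox6a2 and Cox8b, which fell by 24.7% and 23.1%. With condition as the only term, none of the 4 ubiquitous isoforms passed the test in edgeR or in DESeq2, although 3 had an unadjusted p under 0.05 in edgeR. Over all genes tested, 8.03% were lower and 7.61% higher at that unadjusted cut. DESeq2 called the same 2 muscle isoforms (adjusted p = 0.000188 for Cox6a2 and 0.0484 for Cox8b). In 7 of the 8 genes both EDA-A2 libraries lay below both Control libraries, which held for 22.2% of all genes tested. The exception was Cox7a2l. When libraries were scaled by total counts alone, Cox8a and Cox7a2l overlapped, the count was 6 of 8 and the share of all genes was 13.8%. The median log2 fold change was -0.41 over the 3 muscle isoforms and -0.18 over the 4 ubiquitous ones, beside -0.0021 over all genes tested.

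**Figure D1:**
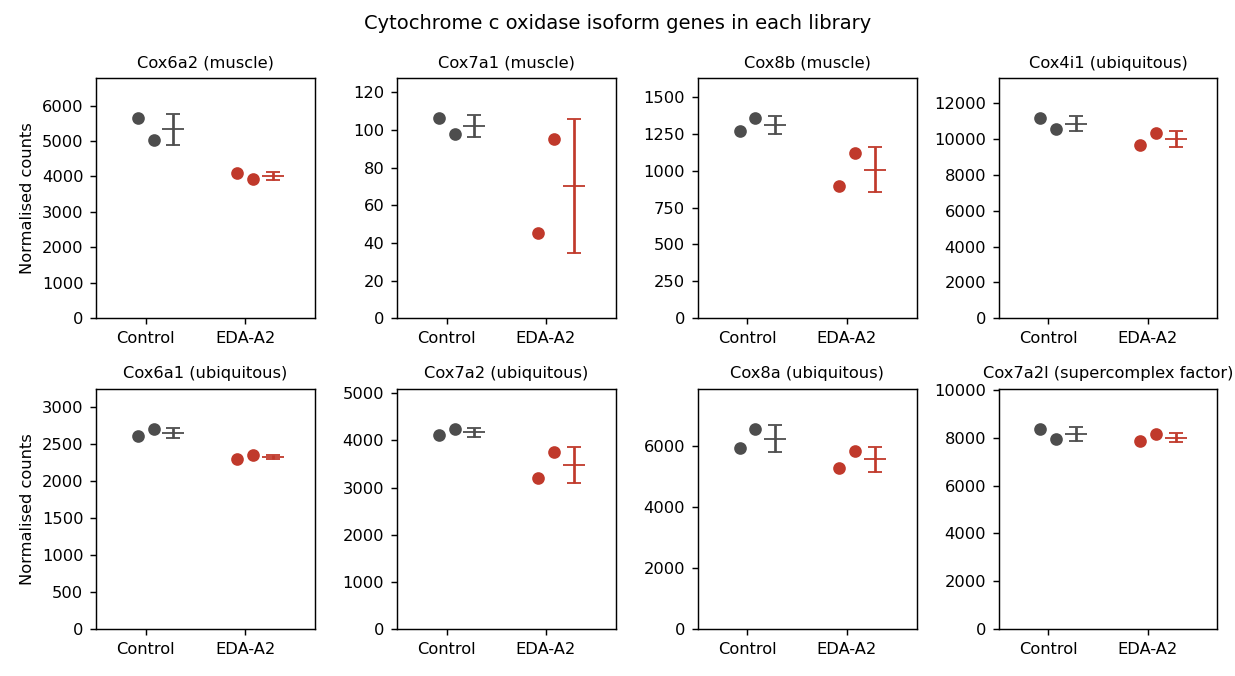
Normalised counts (vertical axes, each from 0) of the 8 isoform genes tested, with each library as a point and the mean ± SD (n = 2) beside each group. The EDA-A2 libraries lie below both Control libraries for every gene plotted except Cox7a2l, and the 2 EDA-A2 libraries of Cox7a1 are far apart at 45.1 and 95.3.

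Cox6a2 (ENSMUSG00000030785, GRCm39 chromosome 7 from 127804607 to 127805559, minus strand, 3 exons) encodes the muscle form of subunit 6a, a regulatory subunit that responds to the supply of adenine nucleotides. Its normalised counts were 5637 and 5025 in Control replicates 1 and 2 and 4090 and 3936 in EDA-A2 replicates 1 and 2. The groups did not overlap, and the gap between them was wider than the gap between the libraries of either group. The mean went from 5331 ± 433 to 4013 ± 109 (SD, n = 2 each), with a log2 fold change of -0.41 (SE 0.07, adjusted p = 0.00349 by edgeR). By p-value it ranked 232 among the genes tested. The call was lost without Control replicate 1 (-0.32, adjusted p = 0.288 by edgeR), without Control replicate 2 (-0.49, adjusted p = 0.183), and when genes were kept down to 1 count in total (-0.41, adjusted p = 0.121). No gene of the whole table was called by edgeR without either Control library, while 1117 and 1203 genes then had an unadjusted p under 0.05 and a lower level.

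Cox8b (ENSMUSG00000025488, chromosome 7 from 140477069 to 140480359, minus strand, 2 exons) encodes the muscle form of subunit 8, one of the smallest nuclear subunits, which spans the membrane. It had 1266 and 1354 normalised counts under Control against 898 and 1116 under EDA-A2. Both EDA-A2 values lay below both Control values, and EDA-A2 replicate 1 was the lowest. The means were 1310 ± 62.2 and 1007 ± 155 (SD, n = 2 each), and the log2 fold change was -0.38 (SE 0.10, adjusted p = 0.0399 by edgeR). The change was no longer called without EDA-A2 replicate 1 (-0.23, adjusted p = 0.615 by edgeR), without Control replicate 1 (-0.43, adjusted p = 0.371) or without Control replicate 2 (-0.33, adjusted p = 0.405), nor with total counts as the only scaling (-0.33, adjusted p = 0.0963) or without the filter (-0.38, adjusted p = 0.363). Exons of Psmd13, a proteasome subunit gene on the opposite strand, cover 51.5% of the exonic bases of Cox8b. Psmd13 had a log2 fold change of 0.06 (adjusted p = 0.787 by edgeR). The strand setting of the counting is not given in the sources used here. Of 304 genes of the annotation whose exons lie wholly within exons of a gene on the other strand, 13 had at least 100 counts over the 4 libraries, up to 14725. These counts do not give the share of Psmd13 reads in Cox8b, or of Cox8b reads left uncounted over the shared bases. Neither share was tested.

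Cox7a1 (ENSMUSG00000074218, chromosome 7 from 29883569 to 29885503, plus strand, 4 exons) encodes the muscle form of subunit 7a, which lies at contacts of complex IV with its neighbours in the membrane. It had few reads, with 103 and 97 raw counts under Control against 46 and 97 under EDA-A2. In normalised counts these were 106 and 97.8 against 45.1 and 95.3, so that EDA-A2 replicate 2 nearly reached the Control level and EDA-A2 replicate 1 did not. The means were 102 ± 5.87 and 70.2 ± 35.5 (SD, n = 2 each). The log2 fold change of -0.54 had an SE of 0.28 and did not pass the test (adjusted p = 0.389 by edgeR). A single library set this value: it was -0.10 without EDA-A2 replicate 1 (adjusted p = 0.9996) and -1.18 without EDA-A2 replicate 2 (adjusted p = 0.0422).

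Among the ubiquitous isoforms, Cox7a2 (ENSMUSG00000032330, chromosome 9 from 79653049 to 79667162, minus strand), the partner of Cox7a1, had 4109 and 4239 normalised counts under Control against 3201 and 3749 under EDA-A2. All EDA-A2 values were below all Control values, and the log2 fold change was -0.26 (SE 0.08, adjusted p = 0.0750 by edgeR). Without EDA-A2 replicate 2 it was -0.38 (adjusted p = 0.0385). Stretches elsewhere in the genome that match at 92.5% to 94.9% identity cover 47.7% of its transcript, and whether they took or gave reads was not tested.

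Cox6a1 (ENSMUSG00000041697, chromosome 5 from 115483701 to 115487050, minus strand), the partner of Cox6a2, had 2599 and 2697 normalised counts under Control against 2298 and 2342 under EDA-A2. The libraries of a group were close to each other, and the groups were apart. The log2 fold change was -0.19 (SE 0.07, adjusted p = 0.156 by edgeR). A copy elsewhere matches 497 of its 571 transcript bases at 93.0% identity.

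Cox8a (ENSMUSG00000035885, chromosome 19 from 7192515 to 7194997, minus strand), the partner of Cox8b, had 5917 and 6547 normalised counts under Control against 5273 and 5841 under EDA-A2. Control replicate 1 and EDA-A2 replicate 2 nearly met. The change of -0.17 on the log2 scale (SE 0.08) did not pass the test (adjusted p = 0.302 by edgeR), and 2 copies elsewhere cover 59.0% of its transcript. No such copy was found for Cox4i1, Cox4i2, Cox6a2 or Cox7a1, and that of Cox8b covers 4.98%.

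Cox4i1 (ENSMUSG00000031818, chromosome 8 from 121391505 to 121400950, plus strand) encodes the usual form of subunit 4, through which ATP slows the enzyme. It had 11152 and 10581 normalised counts under Control against 9681 and 10328 under EDA-A2. The groups lay side by side without overlap, with a log2 fold change of -0.12 (SE 0.07, adjusted p = 0.460 by edgeR). Emc8 on the other strand shares 16.3% of its exonic bases and had a log2 fold change of 0.01.

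Cox4i2 (ENSMUSG00000009876, chromosome 2 from 152595625 to 152606959, plus strand), the isoform of subunit 4 known from lung and from hypoxia, had 0 and 1 counts under Control against 1 and 3 under EDA-A2. Where none is counted, up to 3 may have been missed, which is 0.101 to 0.102 CPM here. All 4 values lay at or under that limit, which covers counting error only. A difference was not detectable at this depth, and no fold change is given.

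Cox7a2l (ENSMUSG00000024248, chromosome 17 from 83765970 to 83824759, minus strand) encodes a protein related to subunit 7a that joins complex IV to complex III in supercomplexes. Its normalised counts were 8373 and 7956 under Control against 7891 and 8150 under EDA-A2, so the groups overlapped. The log2 fold change was -0.026 (SE 0.07, adjusted p = 0.915 by edgeR), and it turned to 0.029 with total counts as the scaling and to 0.013 without Control replicate 1. Copies elsewhere cover 85.2% of its transcript, the longest with 945 aligned bases at 98.0% identity.

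**Figure D2:**
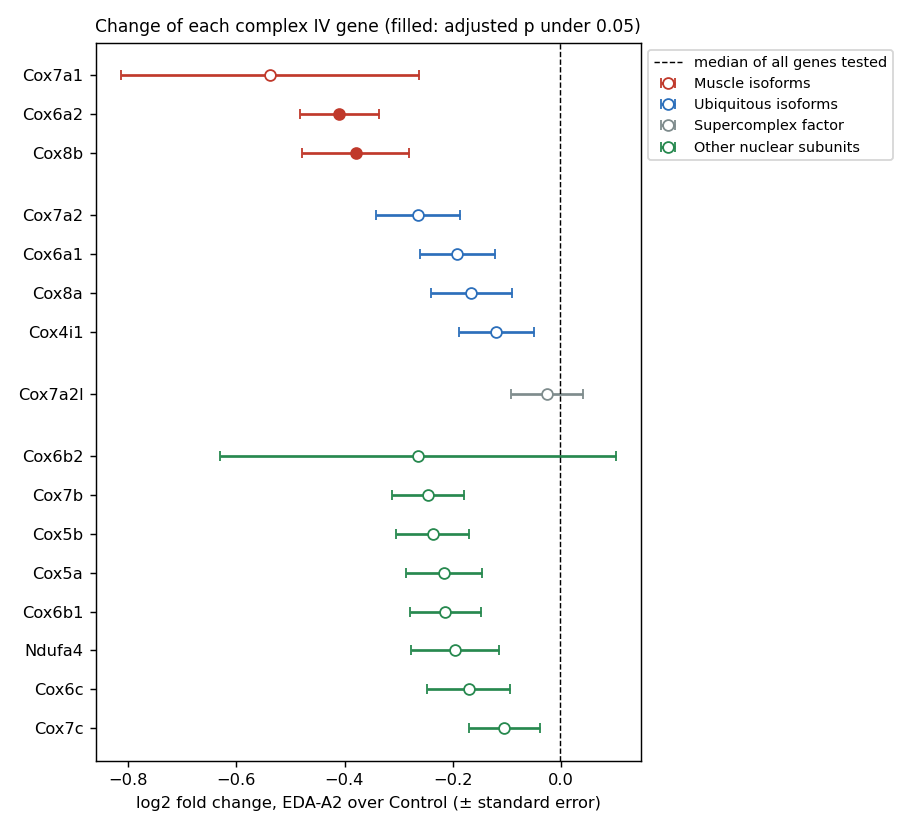
Log2 fold change, EDA-A2 over Control (horizontal axis), with its standard error as the bar, for the isoform genes and the other nuclear complex IV subunits tested; filled points have an adjusted p under 0.05 by edgeR. Cox6a2 and Cox8b are the 2 filled points, every estimate is below 0, and the widest bars belong to Cox7a1 and Cox6b2.

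The genes also differed in level, which was compared per kilobase of exon in normalised counts. In Control libraries Cox6a2 came first with 7794 ± 633 (SD, n = 2), followed by Cox8a with 6986 ± 499, Cox6a1 with 3720 ± 97.3 and Cox4i1 with 3456 ± 128. Much lower were Cox7a2l with 747 ± 27.0, Cox7a2 with 706 ± 15.6, Cox8b with 548 ± 26.1 and Cox7a1 with 169 ± 9.74. The muscle isoforms therefore stood at both ends of the order. No neighbours in the Control order overlapped in their libraries. In EDA-A2 libraries Cox8a (6230 ± 450) and Cox6a2 (5867 ± 160) overlapped, and so did Cox6a1 (3258 ± 44.1) and Cox4i1 (3182 ± 145).

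This order depends on the length used, because GENCODE joins many transcripts in some of these genes. Divided by the length of 1 representative transcript, the Control levels were 13878 ± 516 for Cox4i1, 11049 ± 789 for Cox8a, 7839 ± 636 for Cox6a2, 6527 ± 236 for Cox7a2l, 5128 ± 113 for Cox7a2 and 4638 ± 121 for Cox6a1. Cox8b (610 ± 29.0) and Cox7a1 (231 ± 13.3) stayed below these on either length. Cox6a2 ranked 3 in the Control and 4 in the EDA-A2 libraries on this length, and Cox7a2 and Cox6a1 overlapped in the EDA-A2 libraries. The choice of length multiplied the level of Cox7a2l by 8.73, of Cox7a2 by 7.27 and of Cox4i1 by 4.02. Copies elsewhere in the genome cover 87% of the Cox6a1 transcript, 85.2% of Cox7a2l, 59% of Cox8a and 47.7% of Cox7a2. They cover 4.98% of Cox8b and 0% of Cox6a2, Cox4i1 and Cox7a1. Whether copies changed these levels, or the shares of isoforms within a pair, was not tested.

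Within a library, the balance of the isoforms of 1 subunit does not depend on how libraries are scaled. Of the counts on the Cox6a2 and Cox6a1 pair, Cox6a2 took 68.4% and 65.1% under Control against 64.0% and 62.7% under EDA-A2. The muscle share was thus lower in both EDA-A2 libraries. The log2 ratio changed by -0.22, a ratio 13.9% lower, against a pooled SD between replicates of 0.12. Cox8b took 17.6% and 17.1% of the counts of the Cox8b and Cox8a pair under Control against 14.5% and 16.05% under EDA-A2. Again both EDA-A2 libraries were lower, by 0.22 on the log2 scale or 14.3% of the ratio, with a pooled SD of 0.087. Cox7a1 took 2.52% and 2.26% of its pair under Control against 1.39% and 2.48% under EDA-A2, which overlapped. The difference of -0.37 for that pair was smaller than its pooled SD of 0.43 and became 0.059 without EDA-A2 replicate 1. All these shares are of raw counts and are not corrected for length. Per base of exon, the shares in Control replicate 1 were 69.3% for Cox6a2, 7.40% for Cox8b and 20.2% for Cox7a1. Per base of the representative transcript they were 64.5%, 5.32% and 4.55%. Division by a fixed length does not alter the changes in log2 ratio. Length and GC offsets fitted per library did alter them. They became -0.25 for Cox6a2/Cox6a1, -0.30 for Cox8b/Cox8a and -0.33 for Cox7a1/Cox7a2.

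By exact two-sided permutation tests over the 4 libraries, p was 0.333 for the subunit 6a and subunit 8 pairs and 0.667 for the subunit 7a pair (0.5, 0.5 and 0.667 after Benjamini-Hochberg adjustment over the 3 pairs). With 2 libraries against 2 the smallest p possible is 0.333, so none of these differences could pass the threshold. The 95% Wilson intervals of the shares were at most 1.19 percentage points wide on either side and cover counting error only. The ratio of Cox4i2 to Cox4i1 was not computed because Cox4i2 lay at or under 3 counts.

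**Figure D3:**
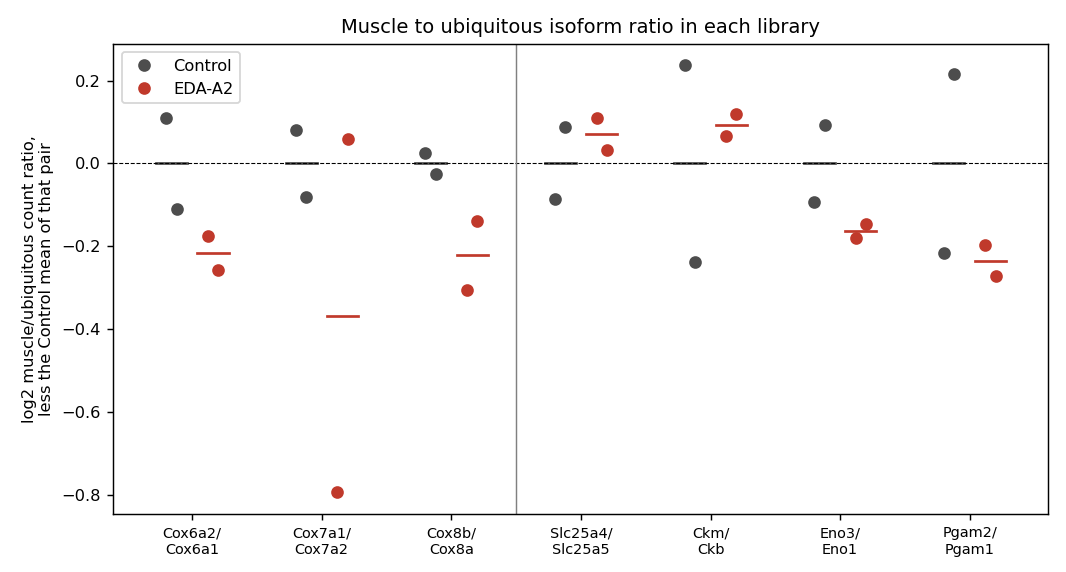
Log2 ratio of muscle to ubiquitous isoform counts in each library, less the Control mean of the pair (vertical axis); points are libraries and short bars group means, with complex IV pairs left of the vertical line and other energy enzymes right of it. Both EDA-A2 points lie below both Control points for Cox6a2/Cox6a1, Cox8b/Cox8a and Eno3/Eno1, and the EDA-A2 points of Cox7a1/Cox7a2 are the farthest apart.

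Other enzymes of muscle energy metabolism also come as muscle and ubiquitous isoforms. Of 10 such genes listed, 9 were tested, and all 9 had a log2 fold change below 0 (median -0.27), beside 50.5% of all genes. In the test 3 were lower, beside 2.13% of all genes. Ckmt2, the mitochondrial creatine kinase of muscle, had 1375 and 1235 normalised counts under Control against 827 and 943 under EDA-A2, and fell by 0.56 on the log2 scale (adjusted p = 0.00181 by edgeR). Ckb, the brain form of cytosolic creatine kinase, fell by 0.45 (adjusted p = 0.00210), and Eno3, the muscle enolase, fell by 0.27 (adjusted p = 0.0370). The muscle forms Ckm (-0.36, adjusted p = 0.0662 by edgeR) and Pgam2 (-0.33, adjusted p = 0.0554) did not pass. Of the 5 pairs, 4 had counts above the floor in every library. Among these 4, the log2 ratio separated the groups for Eno3/Eno1 alone, with a change of -0.16. The ratio changed by 0.07 for the adenine nucleotide carriers Slc25a4/Slc25a5, by 0.09 for Ckm/Ckb and by -0.23 for Pgam2/Pgam1, and in each the groups overlapped. These changes were not tested.

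The remaining nuclear subunits of complex IV had a narrow range of changes. Of 10 listed, 8 were tested, and all 8 lay below 0, beside 50.5% of all genes. Their median was -0.21 and their range from -0.26 to -0.10. In edgeR 0 were called, beside 2.13% of all genes called lower. At an unadjusted p under 0.05, 6 were lower, beside 8.03% of all genes. The Wald test of DESeq2 also called 0, and edgeR called 1 with the size factors of DESeq2. Cox7b, with 4813 and 4659 normalised counts under Control against 3898 and 4091 under EDA-A2, came nearest to the threshold (-0.25, adjusted p = 0.0511 by edgeR). Cox5b (-0.24, adjusted p = 0.0601), Cox6b1 (-0.21, adjusted p = 0.0855) and Cox5a (-0.22, adjusted p = 0.11) followed. Cox5a and Cox5b form the domain on the matrix side, and Cox6b1 lies on the side of cytochrome c. The testis forms Cox7b2 and Cox8c had 0 counts in all 4 libraries. The lowest estimate was that of Cox6b2 (-0.26, SE 0.37), which had only 18 to 24 counts per library, and the next was that of Cox7b. The ubiquitous isoforms, with a median of -0.18, lay in the range of these subunits, Cox7a2 (-0.26) only through Cox6b2. Cox6a2, Cox8b and Cox7a1 were below that range, without a test of that difference.

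Of the 3 subunits encoded in mitochondria, mt-Co1, the catalytic subunit, had 248022 and 250305 normalised counts under Control against 231847 and 252405 under EDA-A2. The groups overlapped, and the log2 fold change was -0.04 (SE 0.08, adjusted p = 0.875 by edgeR). Only 23 to 38 counts per library were on mt-Co2 and 15 to 20 on mt-Co3. Both genes have copies over their full length, 684 and 784 bases at 100% identity, in the nuclear genome, and read pairs that do not map uniquely were left uncounted. The levels of these 2 genes can therefore not be read from the tables. For mt-Co1 the nuclear copies matched all 1545 bases at 97.6% identity and a stretch of 483 bases at 99.8%, so pairs from that stretch may be missing from its count too.

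Cytochrome c itself fell: Cycs had 4886 and 4929 normalised counts under Control against 3844 and 4281 under EDA-A2 (-0.27, SE 0.07, adjusted p = 0.0412 by edgeR). The testis form Cyct had 0 counts. Of 28 factors that assemble complex IV, insert its copper and haem or aid translation of its mitochondrial subunits, 27 were tested. Of these 27, 0 were called in either direction by edgeR or DESeq2. Below 0 lay 19 of the 27, beside 50.5% of all genes, and the median was -0.05. At an unadjusted p under 0.05, 3 of the 27 were lower, beside 8.03% of all genes. The 3 with the smallest p were Higd1a, a small membrane protein that binds complex IV (-0.27, adjusted p = 0.0765), Sco1, a copper chaperone (-0.28, adjusted p = 0.121), and Cox14, which stabilises the newly made Cox1 protein (-0.15, adjusted p = 0.319). Cox10, which makes the haem for the catalytic core, had a log2 fold change of -0.15 (adjusted p = 0.615).

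Among the regulators listed, 2 rose, where 2.45% of all genes were called higher. Rbpj, the DNA-binding partner of Notch that also acts on the Cox4i2 promoter, rose from 8086 and 7123 normalised counts in the Control libraries to 10008 and 9940 in the EDA-A2 libraries (0.39, SE 0.07, adjusted p = 0.00517 by edgeR). It was the 1 called gene of 5 regulators of the subunit 4 isoforms. Chchd2 (-0.16, adjusted p = 0.301), a coactivator at that promoter, did not pass, nor did Hif1a (0.06), Cxxc5 (0.08) or Lonp1 (-0.04). Cox4i2 stayed at 3 counts or fewer in every library.

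Of 12 regulators of muscle isoforms and mitochondria, 10 lay below 0, beside 50.5% of all genes. The test called 0 lower and 1 higher, beside 2.13% and 2.45% of all genes. Tfam, which packs and transcribes mitochondrial DNA, rose from 1379 and 1413 to 1809 and 1887 normalised counts (0.41, SE 0.07, adjusted p = 0.00412 by edgeR), with both EDA-A2 libraries well above both Control libraries. For the MEF2 factors, which bind the motif seen in the Cox6a2 promoter, the log2 fold change was 0.20 for Mef2a (adjusted p = 0.125) -0.18 for Mef2c (adjusted p = 0.177) and -0.11 for Mef2d (adjusted p = 0.539). Of the E-box factors, Myog, the gene of myogenin, had a change of -0.18 (adjusted p = 0.360) and Myod1, the gene of MyoD, one of -0.07 (adjusted p = 0.817).

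Markers of the cell types in such cultures were read beside the muscle isoforms. All 7 myotube markers had a log2 fold change below 0, beside 50.5% of all genes, with a median of -0.18. The test called 2 of them lower, beside 2.13% of all genes. These were Myh3, the embryonic myosin heavy chain (-0.57, adjusted p = 0.000199 by edgeR), and Acta1, skeletal actin (-0.52, adjusted p = 0.00104). The summed normalised counts of the list were 554477 and 528863 under Control against 396722 and 404120 under EDA-A2. Most of each sum came from the 2 called genes. Myh3 had 236852 and 233601 against 160086 and 156193, and Acta1 had 186033 and 173942 against 119001 and 132306. The fusion factor Mymk (-0.01) and the filament gene Des (-0.02) overlapped between groups. Of 4 myoblast markers, Vcam1 (0.53, adjusted p = 0.00250) and Cd34 (0.42, adjusted p = 0.0287) rose, beside 2.45% of all genes called higher. The transcription factors Pax7 (-0.17, adjusted p = 0.286) and Myf5 (-0.24, adjusted p = 0.778) had estimates below 0 and did not pass. The sums of the list were 3257 and 3648 under Control against 4069 and 4175 under EDA-A2. In these bulk libraries, fewer myotubes and less RNA of a gene per myotube cannot be told apart.

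None of the 4 markers of dividing cells and none of the 4 fibroblast markers tested passed in edgeR. At an unadjusted p under 0.05 were 0 and 2 respectively, beside 8.03% lower and 7.61% higher over all genes. Those 2 were Col1a1 (-0.46, adjusted p = 0.221 by edgeR) and Dcn (0.48, adjusted p = 0.267), with estimates of opposite sign. The fibroblast marker Lum had 0 counts in every library. Sums were 19378 to 23059 normalised counts for dividing cells, and the groups overlapped. The fibroblast sums were 49596 and 51542 under Control against 47309 and 47992 under EDA-A2. Col3a1 made up most of them, with 39997 and 46066 against 42197 and 41786. Both Col3a1 and Col1a1 overlapped between groups, while both EDA-A2 values of Pdgfra and of Dcn lay above both Control values. Macrophage markers summed to 58.7 and 67.6 normalised counts under Control against 88.2 and 71.7 under EDA-A2, without overlap. Cd68 made up most of each sum, with 55.6 and 63.5 against 79.4 and 67.8. Its change did not pass (log2 fold change 0.30, adjusted p = 0.619 by edgeR). Both EDA-A2 libraries lay above both Control libraries in 22.8% of all genes tested. The macrophage genes Ptprc and Adgre1 had at most 2 counts. Csf1r had 3 and 1 counts under Control against 8 and 3 under EDA-A2, with overlap, and did not pass the filter. Endothelial markers summed to 26.8 to 32.3, with overlap. Of the brown fat markers, Ucp1 had 0 counts in all 4 libraries, and the list summed to 7.21 and 7.06 under Control against 14.7 and 10.8 under EDA-A2. Most of that was Cidea, with 4 and 2 counts under Control against 13 and 11 under EDA-A2 (log2 fold change 1.90, unadjusted p = 0.00858, adjusted p = 0.115 by edgeR), which did not pass. The part of any of these cell types in the Cox6a2 and Cox8b result was not tested.

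The 5 protein-coding genes whose profile over the 4 libraries was nearest to the mean profile of the muscle isoforms were Cyfip2, Ankrd35, Pdgfrb, Ankrd39 and Itm2a. The root mean square distances on the log2 scale were 0.04, 0.053, 0.068, 0.071 and 0.076. That mean profile was highest in Control replicate 1 (0.27) and lowest in EDA-A2 replicate 1 (-0.46), with EDA-A2 replicate 2 at -0.016, and the low value carries the Cox7a1 count of EDA-A2 replicate 1. Of the 5, Itm2a (-0.56, adjusted p = 0.00111 by edgeR) and Pdgfrb (-0.45, adjusted p = 0.0125) fell. Genes chosen by a profile lower under EDA-A2 are bound to have lower values there, so these falls are no separate result. Of the genes compared, 1 lay within 0.05 of the profile. With only 4 libraries the distances are a description.

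**Figure D4:**
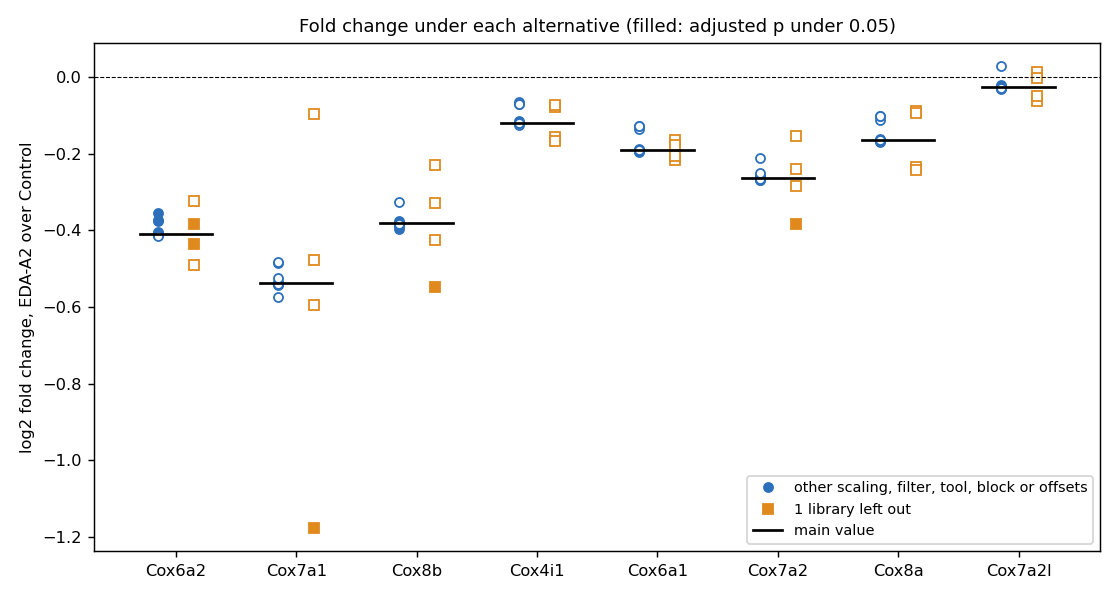
Log2 fold change of each isoform gene tested (vertical axis) under the alternatives, with circles for other scaling, filter, tool, block or offsets, squares for 1 library left out, and a black line for the value reported; filled symbols have an adjusted p under 0.05. Every symbol lies below 0 for each gene except Cox7a2l, and Cox7a1 spans -1.18 to -0.10 when 1 library is left out.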

How the data were processed

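Polyadenylated RNA of 2 Control and 2 EDA-A2 myotube samples was sequenced from stranded libraries. The authors trimmed reads with Trim Galore 0.6.5, mapped them to GRCm39 with STAR 2.7.3a and counted them per gene with HTSeq 0.11.1 (versions per the submitters' processing notes), and deposited a table of raw counts for each library, by Ensembl gene and not normalised. The annotation release and strand setting are not given in the sources used here. HTSeq's summary lines, 12.2% to 13.0% of pairs, were left out. IDs were named from GENCODE vM39, which matched 52610 of 53647 genes.

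Counts were tested in R 4.3.3 with edgeR 4.0.16 (TMM, filterByExpr with a minimum of 10 and a total of 15, glmQLFit and glmQLFTest, condition as the only term), with Benjamini-Hochberg adjustment over all genes tested and a threshold of 0.05. Each SE was computed as the fitted change (log2) over the square root of its F statistic. Log2 ratios within a library used the raw counts, with 0.5 added to both only as an alternative. Profile distances used log2 of the normalised count plus 0.5. Copies were searched with blastn 2.17.0 (identity at least 90%, at least 100 bases). The fit was repeated with upper quartile factors, DESeq2 size factors or total counts, 2 other filters, the DESeq2 1.42.0 Wald test, a replicate block, length and GC offsets (loess span 0.3) and leaving out each library. The edgeR fit, also with the block or the offsets, and the DESeq2 fit were tested on simulated counts with log2 fold changes of size 1.

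All 9 isoform genes are named. In the other lists up to 5 genes with the smallest p and the first-listed gene could be named, and for likeness the 5 nearest protein-coding genes with a mean of at least 100 normalised counts; other genes named were chosen after their values were seen. The members and lists were chosen with earlier results of these data known.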

Additional observations from a re-analysis of the deposited data

How the results depend on the processing

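Directions held for 7 of the 8 isoform genes tested under every alternative. Cox6a2 lay between -0.41 and -0.35 over the 10 fits that keep all libraries, the reported one included. With 1 library left out it lay between -0.49 and -0.32. Its call was lost without the filter (-0.41, adjusted p = 0.121) and without Control replicate 1 or 2. Cox8b lay between -0.55 and -0.23 with 1 library left out, and its call was lost with total counts (-0.33, adjusted p = 0.0963) and without the filter (-0.38, adjusted p = 0.363), which adds genes to the adjustment (25545 tested). Cox7a1 ranged from -1.18 to -0.10 and Cox7a2 from -0.38 to -0.15 with 1 library left out. Cox7a2 was called with a replicate block (-0.27) and with length and GC offsets plus that block (-0.26). Cox7a2l reversed with total counts (0.029) and lay between -0.061 and 0.013 with 1 library left out. The muscle median then ranged from -0.55 to -0.23, the changes in log2 ratio from -0.33 to -0.11 for Cox6a2/Cox6a1, from -0.31 to -0.14 for Cox8b/Cox8a and from -0.79 to 0.059 for Cox7a1/Cox7a2, reversed without EDA-A2 replicate 1. Isoform genes called lower numbered 1 with total counts, 0 without the filter and 0 to 4 with 1 library left out. Other nuclear subunits called lower numbered 1 with DESeq2 size factors, 3 with the replicate block, 1 with offsets and 2 with offsets and block, and assembly factors 1 with the block and 2 with both. Over all genes, 194 were lower with total counts, 22 without the filter, 529 with the block, 720 with offsets and block and 0 to 170 with 1 library left out. Higher genes were 64 without the filter, 575 with offsets and block and 0 to 238 with 1 library left out. Total counts moved the median of all genes to 0.05 and the split to 485 higher and 194 lower. The cause of these shifts was not tested. Deviations of same-numbered libraries correlated at 0.057, so the numbers were not taken to pair the libraries. Without 1 library, the lone library of its group is assumed to vary like the other group. Depth limits Cox4i2.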
